A study of Oryza sativa with 8 samples.

Results

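The sucrose transporters and SWEET carriers of rice shoots are described here through 10 loci, 4 of the SUT family and 6 of the SWEET family. Members were the probe sets annotated with exactly 1 of these loci. The rule gave 12 probe sets out of 57194 that are not array controls, of which 34860 are annotated with 1 locus and together cover 25727 loci. All 10 loci were on the array. A filter on dim probe sets, a mean log2 signal of at least 4.48, left 11 of the 12 for testing. The exception was the second probe set of SUT3.

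The arrays measured shoots of hydroponic rice seedlings, labelled 14 days old, of the varieties Varadan and Prasanna. The 4 groups had 2 arrays each: Varadan with no nitrogen, Varadan with supplemented nitrogen, Prasanna with no nitrogen and Prasanna with supplemented nitrogen. All seedlings had germinated on moist filter paper and then grown in Yoshida medium, a nutrient solution for rice, that contained nitrogen, before the transfer to medium without it or supplemented with it. The labels do not give the time spent in the last medium, the number of plants per array or whether the replicates were separate cultures, so p-values measure only the spread between these arrays. The comparisons ask how the shoot transcripts of each variety differ with nitrogen supply and how the varieties differ at each supply.

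Sucrose made in leaf mesophyll is the main form in which rice exports carbon to roots, young leaves and grain. SUT proteins carry sucrose together with protons across a membrane, against a gradient where needed. SWEET proteins let sugars move down their gradient and serve the steps at which sugar leaves a cell. Members of the clade that includes SWEET11, SWEET13, SWEET14 and SWEET15 mainly carry sucrose, whereas SWEET3A and SWEET4 belong to clades whose studied members mainly carry hexoses. Nitrogen supply sets how much of the carbon is used for amino acids and growth, which is the context in which sugar export is often studied under low nitrogen.

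The values are log2 signals of the MAS5 algorithm, and the trimmed mean of every array was 500 on the linear scale. Array medians lay between 5.59 and 6.26. The arrays of a group correlated at Spearman's rho of 0.854 to 0.863 over all probe sets. The median SD between the arrays of a group was 0.463 and 0.467 in the no-nitrogen groups of Varadan and Prasanna, against 0.260 and 0.309 in their supplemented groups. All 6 probe sets of the leaf markers, the Rubisco small subunit and light-harvesting genes, lay between 10.15 and 17.33 on all 8 arrays. Of the 5 root markers, 4 were also at or above the filter level on both arrays of every group, among them the silicon channel Lsi1 at 9.58 to 10.31, whereas Lsi2 lay between 0.36 and 5.94. Of 16 probe sets of endosperm storage proteins, 5 to 7 per group reached the filter level on both arrays. The share of cells of a type and the RNA per cell cannot be told apart in such bulk samples.

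No member passed the threshold, a Benjamini-Hochberg adjusted p of 0.05 over 34333 probe sets in limma, in any of the 6 comparisons. The member that differed most was SWEET3A, whose mean signal was higher without nitrogen in Prasanna, by 5.39 on the log2 scale as measured and by 3.52 when the supplemented values, which lay below the filter level, were set to that level. SWEET4 and SUT4 were higher without nitrogen in Varadan, on both arrays in each case, as were 18.8 percent of all probe sets. SWEET13 was higher in Varadan than in Prasanna with supplemented nitrogen. Each of these differences had an unadjusted p below 0.05 and an adjusted p well above it. SWEET4 was also higher without nitrogen on both Prasanna arrays, by 0.51 with an unadjusted p of 0.184 in limma. SUT1, SUT2, SWEET3A and SWEET13 were lower on the first than on the second no-nitrogen array of each variety, by more than 1 log2 unit. The tested SUT3 probe set was higher on the first by more than 1. Of all probe sets, 16.5 percent had gaps of at least 1 in the same direction in both varieties.

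**Figure D1:**
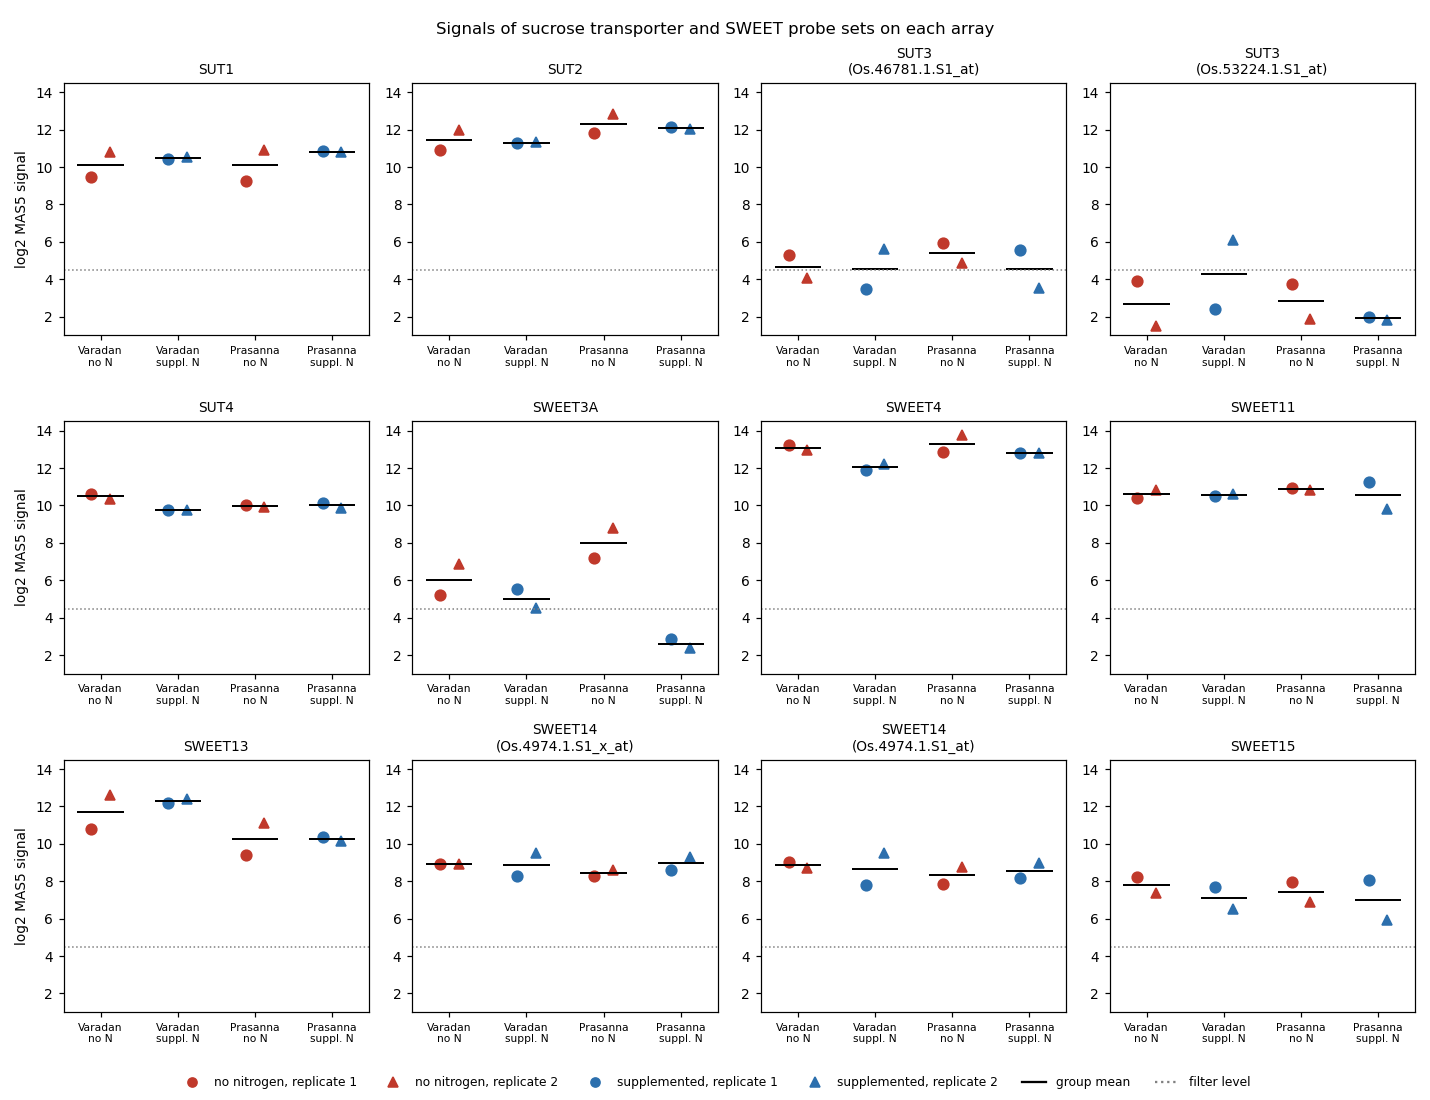
Log2 MAS5 signal (vertical axis) of the 12 member probe sets in the 4 groups (horizontal axis); points are single arrays and bars are group means. Both no-nitrogen Prasanna arrays of SWEET3A, at 7.20 and 8.80, lie above both supplemented arrays, at 2.85 and 2.36.

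SUT1 (Os03g0170900) is the plasma membrane sucrose symporter of rice best known for phloem transport and grain filling. Its log2 signal was 9.47 and 10.78 in Varadan without nitrogen, against 10.43 and 10.55 in Varadan with supplemented nitrogen. It was 9.24 and 10.94 in Prasanna without nitrogen, against 10.85 and 10.79 in Prasanna with supplemented nitrogen. The first no-nitrogen array of each variety was low and the second was above both supplemented arrays in Prasanna and in Varadan, so the groups overlapped. The nitrogen differences were -0.36 ± 0.61 (SE) in Varadan and -0.73 ± 0.61 in Prasanna, with limma's 95% intervals of -1.80 to 1.07 and -2.17 to 0.71. Without both first no-nitrogen arrays they were 0.29 in Varadan and 0.12 in Prasanna, of the opposite sign. That fit holds 1 array per no-nitrogen group, the one above both supplemented arrays, so it cannot settle the sign.

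SUT2 (Os12g0641400) is the tonoplast member of the family, which releases sucrose from the vacuole. It read 10.89 and 11.99 in Varadan without nitrogen, against 11.30 and 11.32 in supplemented Varadan. It read 11.80 and 12.82 in Prasanna without nitrogen, against 12.14 and 12.03 in supplemented Prasanna. Here too the 2 no-nitrogen arrays lay on either side of the supplemented ones. The nitrogen difference was 0.13 ± 0.45 in Varadan and 0.22 ± 0.45 in Prasanna (SE). Leaving out both first no-nitrogen arrays gave 0.68 in Varadan, 0.73 in Prasanna and 0.71 averaged over the varieties. That fit holds 1 array per no-nitrogen group. Between varieties, SUT2 averaged 11.31 ± 0.01 in Varadan and 12.08 ± 0.08 in Prasanna with supplemented nitrogen (SD, n = 2 each), a difference of -0.77 ± 0.45 (SE) with an interval of -1.84 to 0.29. Both supplemented Varadan arrays were lower than both Prasanna arrays, and the limma adjusted p was 0.815.

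SUT3 (Os10g0404500), a family member known from pollen, was dim. Its tested probe set reached the filter level on 5 of 8 arrays, with 5.29 and 4.06 in Varadan without nitrogen against 3.47 and 5.62 in supplemented Varadan. In Prasanna it gave 5.94 and 4.87 without nitrogen, against 5.57 and 3.51 with supplemented nitrogen. The other SUT3 probe set averaged 2.92 over the 8 arrays and reached the filter level on 1 of them, a supplemented Varadan array at 6.10. For the tested probe set the gap between the supplemented arrays, first minus second, was -2.15 in Varadan and 2.06 in Prasanna. Both gaps were larger in size than the nitrogen differences, 0.13 ± 1.22 in Varadan and 0.86 ± 1.22 in Prasanna (SE). Without both first no-nitrogen arrays, with 1 array left per no-nitrogen group, the differences were -0.48 in Varadan and 0.33 in Prasanna.

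SUT4 (Os02g0827200) is a further sucrose symporter of the family. Its log2 signal was 10.63 and 10.36 in Varadan without nitrogen, against 9.76 and 9.73 in supplemented Varadan. It was 10.01 and 9.92 in Prasanna without nitrogen, against 10.15 and 9.85 in supplemented Prasanna. Between supplies, only the Varadan arrays did not overlap. Without nitrogen both Varadan arrays were higher than both Prasanna arrays, as were 13.1 percent of all probe sets. With supplemented nitrogen both were lower, as were 20.5 percent. These variety differences were 0.53 ± 0.27 and -0.25 ± 0.27 (SE). The nitrogen difference in Varadan was 0.75 ± 0.27 (SE; interval 0.13 to 1.37), or 1.68-fold, with an unadjusted p of 0.0247 and an adjusted p of 0.490 in limma. In Prasanna it was -0.03 ± 0.27 (interval -0.66 to 0.59). The difference between the 2 effects, Varadan minus Prasanna, was 0.78 ± 0.38 with an interval of -0.10 to 1.66 and a limma adjusted p of 1. The SUT4 probe set carries the array maker's suffix for alternative transcripts of a gene.

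SWEET3A (Os05g0214300) is a SWEET carrier reported in rice to move glucose and gibberellin. It read 5.20 and 6.87 in Varadan without nitrogen, against 5.53 and 4.50 in supplemented Varadan. In Prasanna it read 7.20 and 8.80 without nitrogen, against 2.85 and 2.36 with supplemented nitrogen. Both supplemented Prasanna arrays were below the filter level, so this probe set passed the filter through its other arrays. In Prasanna the difference was 5.39 ± 0.93 (SE; interval 3.20 to 7.58), or 42.0-fold, with an unadjusted p of 0.000589 and an adjusted p of 0.266 in limma. With dim values set to the filter level the Prasanna difference was 3.52, or 11.5-fold, with a limma adjusted p of 0.381.

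In Varadan the nitrogen difference of SWEET3A was 1.02 ± 0.93 (SE; interval -1.17 to 3.20), and the arrays overlapped. Leaving out 1 array at a time moved it between 0.18, without the second no-nitrogen Varadan array, and 1.85, without the first. The test of the difference between the effects gave -4.38 ± 1.32, Varadan minus Prasanna, with an interval of -7.47 to -1.28. Its unadjusted p was 0.0121 and its adjusted p was 1 in limma. With dim values set to the filter level this difference was -2.50. Averaged over both varieties, the nitrogen difference of SWEET3A was 3.20 ± 0.66 (interval 1.66 to 4.75), with a limma adjusted p of 0.125. With dim values set to the filter level the average was 2.27, with a limma adjusted p of 0.155. Leaving out both first no-nitrogen arrays gave 4.02, with a limma adjusted p of 0.0532. That last fit holds 1 array per no-nitrogen group, which is assumed to vary like the supplemented arrays, the source of all the spread in it, and those had the smaller SDs.

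For SWEET3A the estimated variety differences had opposite signs at the 2 supplies, and neither passed the adjusted threshold. Without nitrogen both Varadan arrays were lower than both Prasanna arrays, with a difference of -1.96 ± 0.93 (SE) and an interval of -4.15 to 0.22. With supplemented nitrogen both Varadan arrays were higher, by 2.41 ± 0.93 (interval 0.22 to 4.60), with an unadjusted p of 0.0349 and an adjusted p of 0.578 in limma. Set to the filter level, the dim Prasanna values gave 0.54 for this second difference, with a limma adjusted p of 0.981.

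SWEET4 (Os02g0301100) is a hexose carrier known in rice for sugar import into the growing grain. Its log2 signal was 13.21 and 12.95 in Varadan without nitrogen, against 11.87 and 12.22 in supplemented Varadan. It was 12.85 and 13.76 in Prasanna without nitrogen, against 12.80 and 12.78 in supplemented Prasanna. Neither variety's groups overlapped, although the lower Prasanna array without nitrogen was close to the supplemented arrays. The Varadan difference was 1.03 ± 0.35 (SE; interval 0.22 to 1.84), or 2.04-fold, with an unadjusted p of 0.0197 and an adjusted p of 0.477 in limma. The Prasanna difference was 0.51 ± 0.35 (interval -0.31 to 1.32), and 0.05 without the second no-nitrogen Prasanna array. Averaged over the varieties it was 0.77 ± 0.24 (interval 0.19 to 1.34), with a limma adjusted p of 0.262. Without both first no-nitrogen arrays the average was 0.93, with a limma adjusted p of 0.0334. That fit has the same limit as for SWEET3A, 1 array per no-nitrogen group.

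SWEET4 and SUT4 were the members whose Varadan arrays did not overlap between supplies. Both were higher without nitrogen, as were 18.8 percent of all probe sets, and the leaf markers stood lower in the same comparison. All 6 leaf marker probe sets, which cover only 3 loci, were lower without nitrogen in Varadan. Their median difference was -1.10, against -0.06 over all probe sets. Of the 6, 5 had an unadjusted p below 0.05 in limma, against 8.94 percent of all probe sets, and none passed the adjusted threshold. Their mean level per array ranged from 14.38 to 15.37 in Varadan without nitrogen and from 15.81 to 16.19 in supplemented Varadan. In Prasanna it ranged from 14.52 to 15.02 without nitrogen and from 15.10 to 15.25 with supplemented nitrogen. The part of the leaf markers in the differences of SWEET4 and SUT4 was not tested.

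SWEET11 (Os08g0535200) is a sucrose carrier known from rice grain filling and as a target of the bacterial blight pathogen. It read 10.39 and 10.85 in Varadan without nitrogen, against 10.52 and 10.62 in supplemented Varadan, and the groups overlapped. It read 10.93 and 10.85 in Prasanna without nitrogen, against 11.27 and 9.82 in supplemented Prasanna, where the 2 supplemented arrays were 1.45 apart. The nitrogen difference was 0.05 ± 0.47 in Varadan and 0.34 ± 0.47 in Prasanna (SE). No difference of SWEET11 was detectable beyond these errors in any comparison.

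SWEET13 (Os12g0476200) is a sucrose carrier of the same clade. It read 10.80 and 12.63 in Varadan without nitrogen, against 12.19 and 12.39 in supplemented Varadan. It read 9.40 and 11.11 in Prasanna without nitrogen, against 10.38 and 10.18 in supplemented Prasanna. The supplemented arrays of each variety were close together, and the no-nitrogen arrays lay on either side of them. With supplemented nitrogen Varadan stood above Prasanna by 2.01 ± 0.70 (SE; interval 0.37 to 3.65), or 4.03-fold, with an unadjusted p of 0.0229 and an adjusted p of 0.495 in limma. Without nitrogen the varieties differed by 1.46 ± 0.70 (interval -0.19 to 3.10), and their arrays overlapped. By replicate number Varadan was higher on both arrays, 10.80 against 9.40 on the first and 12.63 against 11.11 on the second. The fit did not take these numbers as pairs. Leaving out both first no-nitrogen arrays did not touch the supplemented arrays, so the difference was again 2.01, but the spread then came from the supplemented arrays alone and the limma adjusted p was 0.00335. The nitrogen differences of SWEET13 were -0.58 ± 0.70 in Varadan and -0.02 ± 0.70 in Prasanna (SE). Without both first no-nitrogen arrays, with 1 array left per no-nitrogen group, they were 0.34 and 0.83. With supplemented nitrogen 6 of 6 leaf marker probe sets, from 3 loci, were higher in Varadan than in Prasanna, with a median difference of 0.59. Of the root marker probe sets 3 of 4 were higher, with a median of 0.62. The median over all probe sets was 0.02. None of these passed the adjusted threshold in limma, and their part in the difference of SWEET13 was not tested. The probe sets of SWEET11 and SWEET13 carry the suffix for probes shared by several transcripts.

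SWEET14 (Os11g0508600), another clade member and pathogen target, had 2 probe sets. The probe set with the _x_at suffix, which marks probes that can bind similar sequences, read 8.94 and 8.91 in Varadan without nitrogen, against 8.29 and 9.50 in supplemented Varadan. It read 8.28 and 8.61 in Prasanna without nitrogen, against 8.62 and 9.31 in supplemented Prasanna. The Prasanna arrays of this probe set did not overlap, with a difference of -0.52 ± 0.46 (SE). The other SWEET14 probe set read 9.03 and 8.73 in Varadan without nitrogen, against 7.80 and 9.51 in supplemented Varadan. It read 7.86 and 8.77 in Prasanna without nitrogen, against 8.16 and 8.98 in supplemented Prasanna, and these arrays overlapped. Its Prasanna difference was -0.26 ± 0.62 (SE), of the same sign.

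SWEET15 (Os02g0513100), known in rice for sugar release to the embryo sac together with SWEET11, read 8.24 and 7.35 in Varadan without nitrogen, against 7.70 and 6.52 in supplemented Varadan. It read 7.98 and 6.87 in Prasanna without nitrogen, against 8.06 and 5.91 in supplemented Prasanna. The first array was higher than the second in all 4 groups. The nitrogen differences were 0.68 ± 0.82 in Varadan and 0.44 ± 0.82 in Prasanna (SE), smaller than the gap between the 2 arrays of any group.

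**Figure D2:**
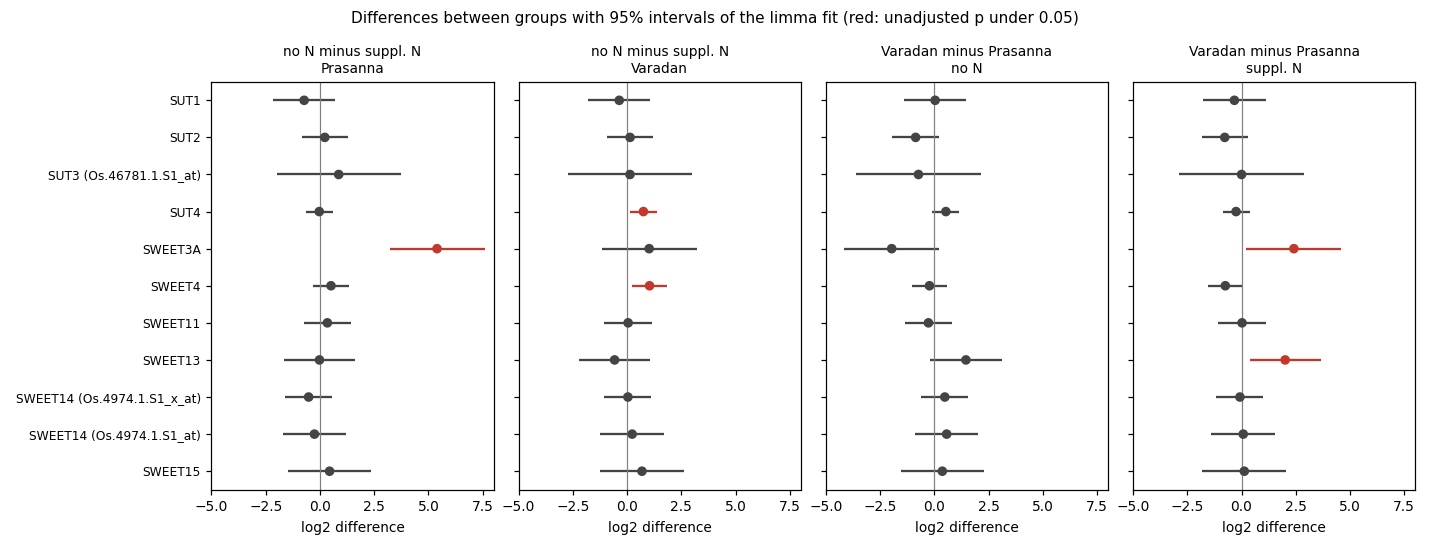
Log2 difference (horizontal axis) of the 11 tested member probe sets, with 95% limma intervals, for the nitrogen and variety comparisons; red marks an unadjusted p below 0.05. The interval of SWEET3A in Prasanna, 3.20 to 7.58, is the one farthest from 0, and most other intervals include 0.

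Read over the whole list, the nitrogen comparison in Prasanna called 0 of 11 member probe sets at the adjusted threshold, against 0 percent of all probe sets, and 1 of 11 at an unadjusted p of 0.05, against 6.63 percent. In Varadan it called 0 against 0.00291 percent, and 2 of 11 at the unadjusted p against 8.94 percent. Averaged over the varieties it called 0 against 0.183 percent, and 2 at the unadjusted p against 13.4 percent. The difference of the nitrogen effects called 0 against 0 percent, and 1 at the unadjusted p against 2.08 percent. Between varieties, 0 of 11 passed against 0.763 percent without nitrogen and 0.693 percent with supplemented nitrogen, and 0 and 2 passed the unadjusted p, against 6.36 and 7.69 percent. Counts of 0 to 2 among 11 probe sets are not read as a result about the list.

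Arrays that did not overlap gave a similar picture. In Prasanna 2 member probe sets were higher without nitrogen on both arrays, those of SWEET3A and SWEET4, and 1 was lower, a probe set of SWEET14, against 17.8 and 17.7 percent of all probe sets. In Varadan 2 were higher, those of SUT4 and SWEET4, and 0 were lower, against 18.8 and 23.9 percent. Without nitrogen 2 stood higher in Varadan than in Prasanna, those of SUT4 and SWEET14, and SWEET3A stood lower, against 13.1 and 15.2 percent. With supplemented nitrogen 2 stood higher in Varadan, those of SWEET3A and SWEET13, and 4 stood lower, those of SUT1, SUT2, SUT4 and SWEET4, against 23.5 and 20.5 percent.

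The median nitrogen difference of the 11 probe sets was 0.13 in Varadan, against -0.06 over all probe sets, and 0.22 in Prasanna, against -0.00333. In Varadan 9 were higher and 2 lower, and in Prasanna 6 were higher and 5 lower. SWEET14 enters these counts with 2 probe sets, and several of the differences were smaller than their SE. The counts are not read as a result about the list. The medians of the variety differences were 0.04 without nitrogen and 0.00 with supplemented nitrogen, against -0.03 and 0.02.

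Some members had large gaps between the 2 no-nitrogen arrays in both varieties, in either direction. Without nitrogen, the first array was lower than the second in both varieties by more than 1 log2 unit for SUT1 (-1.31 in Varadan and -1.70 in Prasanna), SUT2 (-1.10 and -1.02), SWEET3A (-1.67 and -1.60) and SWEET13 (-1.83 and -1.71). SUT3 had the opposite gap, 1.22 in Varadan and 1.06 in Prasanna. Gaps had the same sign in both varieties for 7 of 11 members, against 69.7 percent of all probe sets. The first array was lower for 4 of these and higher for 3, and the count is not read as a result about the members. The 5 of 11 with gaps of more than 1 log2 unit compare with 16.5 percent of all probe sets whose gaps were at least 1 in the same direction. With supplemented nitrogen 1 member did, SWEET15, against 4.11 percent. The labels give no batch for these arrays, and the part of the gap in the nitrogen differences was not tested. Values without the first no-nitrogen arrays are given above for SUT1, SUT2, SUT3, SWEET3A, SWEET4 and SWEET13.

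**Figure D3:**
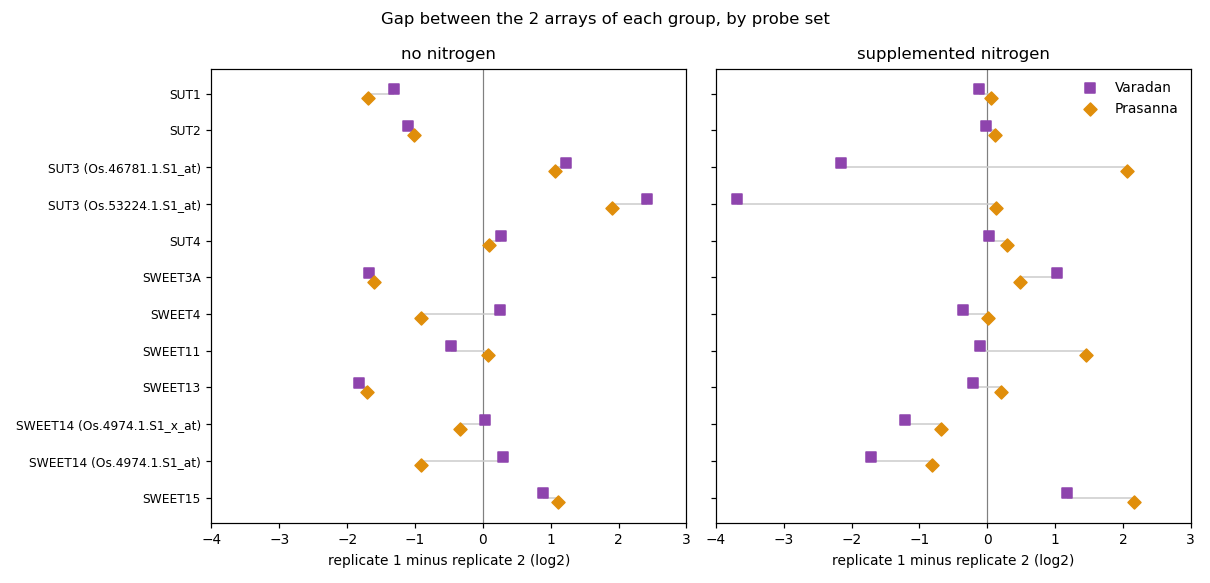
Difference between the first and the second array of each group (horizontal axis, log2) for the 12 member probe sets, with squares for Varadan and diamonds for Prasanna. Without nitrogen the points of SUT1, SUT2, SWEET3A and SWEET13 lie between -1.83 and -1.02 in both varieties, and those of both SUT3 probe sets lie above 1.

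Genes of sugar handling that are not members were counted from lists. Of the other SUT and SWEET carriers 9 probe sets were tested, and averaged over the varieties 2 were higher and 7 lower without nitrogen, with a median of -0.23. Of the hexose and vacuolar sugar carriers 6 were higher and 3 lower, with a median of 0.19. Of the invertases and sucrose synthases, which break sucrose down, 7 were higher and 8 lower, with a median of -0.06. Of the sucrose synthesis enzymes 0 were higher and 9 lower, with a median of -1.21, against -0.03 over all probe sets. None of these probe sets passed the adjusted threshold in limma in any of the 6 comparisons. At an unadjusted p of 0.05 in limma, the averaged nitrogen effect called 1 of the other SUT and SWEET carriers and 1 of the hexose carriers as higher, and 1 of the invertases and sucrose synthases and 2 of the synthesis enzymes as lower. Over all probe sets 13.4 percent had such a p in this comparison, so these counts are not read as results about the lists.

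The mean signal of the sucrose synthesis enzymes was low on the first no-nitrogen array of each variety. Their mean deviation from the mean over all arrays was -1.56 on the first Varadan array and -1.44 on the first Prasanna array without nitrogen, and between 0.34 and 0.62 on each remaining array, which included the second no-nitrogen arrays. The members' own mean deviation was 0.03 and -0.03 on those first arrays, and 0.34 and 0.51 on the second. Their median deviation was 0.13 and 0.01 on the first and 0.19 and 0.17 on the second. SWEET3A weighed on the mean, at 8.80 on the second no-nitrogen Prasanna array against its 8-array mean of 5.41.

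**Figure D4:**
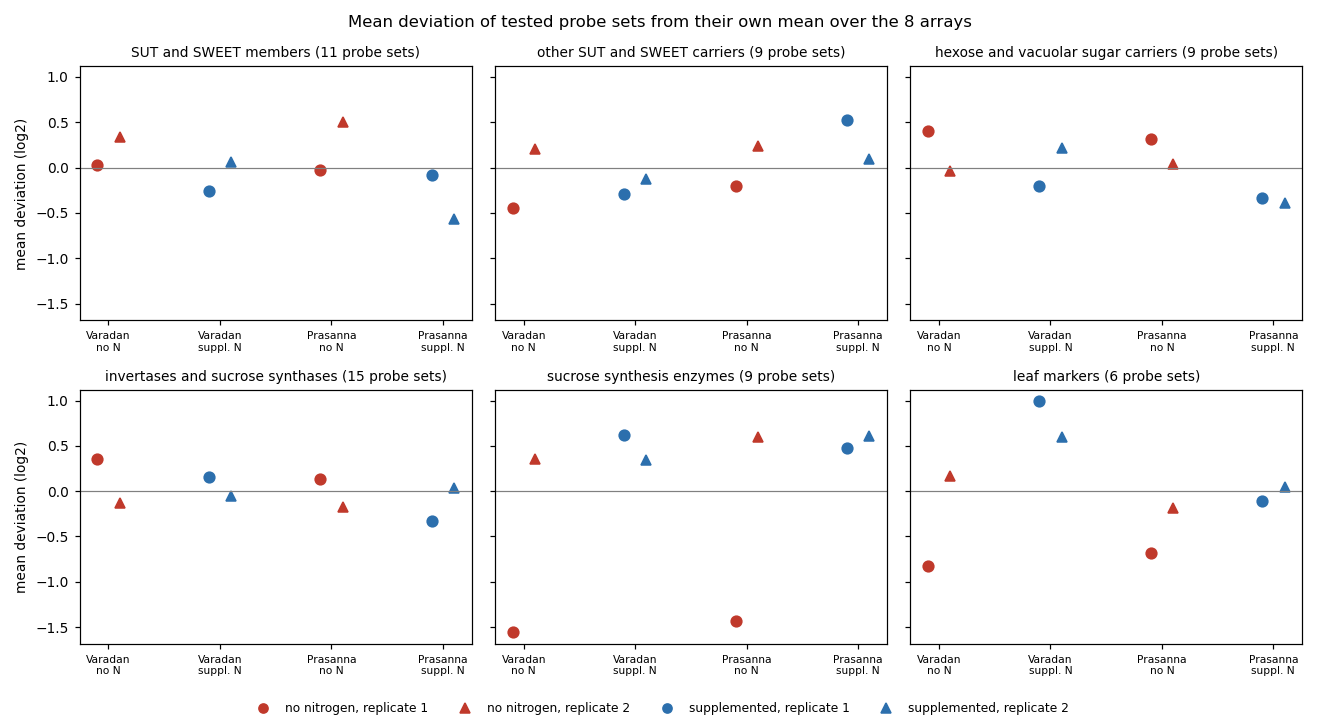
Mean deviation from the 8-array mean (vertical axis, log2) of the tested probe sets of each list on each array (horizontal axis). The sucrose synthesis enzymes lie at -1.56 and -1.44 on the first no-nitrogen arrays of Varadan and Prasanna and above 0 on the others.

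The loci whose centred log2 profile over the 8 arrays was closest to that of SWEET3A were Os02g0323600, Os08g0271400, Os01g0636400, Os10g0320100 and Os03g0201800, at root mean square differences of 0.85, 0.99, 1.13, 1.15 and 1.16, against a median of 2.11 over 27373 profiles. For SUT1 they were Os01g0158200, Os08g0511900, Os04g0667700, Os08g0243500 and Os02g0794700, at 0.10, 0.10, 0.12, 0.13 and 0.13, against a median of 0.81. The loci were picked as the closest, so their place below the median follows from that choice. SUT1 was lowest on the first no-nitrogen arrays, at 9.47 in Varadan and 9.24 in Prasanna. The part of that gap in the likeness was not tested.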

How the data were processed

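The authors deposited MAS5 log2 values and the matching linear intensity values of 8 arrays, per the file headers and the submitters' processing notes. No source used here names the scanner settings or the version of the chip annotation. The 2 tables matched to within 3e-08 on the log2 scale. From the deposited log2 values, limma 3.58.1 in R 4.3.3 fitted 1 mean per group over all 8 arrays. The fit had 4 residual degrees of freedom, a variance prior with a trend and 2-sided tests. Benjamini-Hochberg adjustment ran over 34333 probe sets. Their mean log2 was at or above the 40th percentile of all 57381 probe sets, controls included, and the 187 controls were then left out. Nitrogen effects are no nitrogen minus supplemented nitrogen, and variety effects are Varadan minus Prasanna. The script was tested on simulated data. Every member locus is named, whatever its values. Other genes are given as counts over lists, with the 5 loci closest to SWEET3A and SUT1 by profile named. Exceptions are the root markers Lsi1 and Lsi2, and SWEET1A, MST4 and SPP1 among the closing observations, all chosen after their values were seen. The members and lists were chosen with earlier results of these data known, and the loci of the context lists were corrected after the files were opened, because a match by symbol had taken in unrelated genes. Gene symbols came from the member rule, and 9 of 10 member IDs were found in the RefSeq gene table. Signal over background, and 2 arrays per group, limit the precision. No sequence is printed. Alternatives were quantile normalization, no filter, no variance trend, array weights, a replicate block, a floor on dim values, an additive model, leaving out each array, and leaving out both first no-nitrogen arrays.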

Additional observations from a re-analysis of the deposited data

How the results depend on the processing

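Of 1001 member results recomputed under the alternatives, 2 changed their call: the averaged nitrogen effect of SWEET4 and the variety effect of SWEET13 with supplemented nitrogen passed without both first no-nitrogen arrays, 1 member probe set in each of these 2 comparisons. In that fit each no-nitrogen group is 1 array, assumed to vary like the others, and the spread comes from the supplemented arrays alone, with 2 residual degrees of freedom. No member was called in the fit reported, and the sign of several uncalled differences depended on the setting, such as SUT1 in Prasanna (-1.58 to 0.12) and SUT2 in Varadan (-0.42 to 0.68). Without both first no-nitrogen arrays 296 passed in Prasanna (0 in the fit reported), 370 in Varadan (1), 1202 on average (63) and 739 between varieties with supplemented nitrogen (238). Values floored at the filter level gave 1 in Prasanna, 418 between varieties without nitrogen (262) and 409 with supplemented nitrogen. Array weights gave 120 on average, 155 between varieties without nitrogen and 572 with supplemented nitrogen. A prior without trend gave 0 in Varadan and 1 on average, and additive terms gave 246 on average. The replicate block gave 150 on average, and 295 between varieties without nitrogen. Deviations of same-numbered arrays correlated at 0.46 between the no-nitrogen groups of the 2 varieties. The rest of the 6 pairs of groups gave -0.04 to 0.11. The fit reported did not take the numbers as pairs, so it does not account for the shared deviation in the variety comparison without nitrogen. Leaving out 1 array at a time gave 0 to 5 in Prasanna, 0 to 1 in Varadan, 0 to 84 on average, 158 to 194 between varieties without nitrogen and 42 to 278 with supplemented nitrogen, and 0 members in every comparison. The average was 0 without any single supplemented array, and 11 and 24 without the first and the second no-nitrogen Prasanna array. The supplemented variety count was 42 to 86 without any single supplemented array. Prasanna reached 5 without either no-nitrogen Varadan array. The difference of nitrogen effects gave 0 under every alternative run. The cause of these shifts was not tested.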

Other observations

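Some genes of the context lists had an unadjusted p below 0.05 in limma and were chosen here after their values were seen, and none of them passed the adjusted threshold. SWEET1A, a hexose carrier of the SWEET family, had 2 probe sets. The dimmer read 5.97 and 5.95 on the Varadan arrays without nitrogen, against 3.68 and 3.72 on the supplemented ones. In Prasanna it read 7.08 and 6.94 without nitrogen, against 6.80 and 5.36 with it. The supplemented Varadan values were below the filter level of 4.48, so no size is given for that difference, whose limma adjusted p was 0.438. The other SWEET1A probe set read 12.36 and 10.94 in Varadan without nitrogen, against 11.71 and 12.33 in supplemented Varadan, so the probe sets of this gene disagreed. The monosaccharide transporter MST4 stood higher without nitrogen in Varadan by 1.41 ± 0.52 (SE; limma adjusted p 0.502). The sucrose phosphatase SPP1 read 7.96 and 9.29 on the no-nitrogen Varadan arrays, against 10.11 and 9.80 on the supplemented ones. The Prasanna signals of SPP1 were 7.88 and 8.83 on the no-nitrogen arrays, against 9.23 and 9.68 on the supplemented pair. It was lower on both no-nitrogen arrays of each variety, as were 23.9 percent of all probe sets in Varadan and 17.7 percent in Prasanna. The averaged difference was -1.21 ± 0.37 (SE), with a limma adjusted p of 0.251. In each variety the first no-nitrogen array was the lower of the 2, as for the mean of the sucrose synthesis enzymes.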
